A study of Humulus lupulus with 6 samples.

Results

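The loci described here are those that leaf and apical meristem of hop (Humulus lupulus) both used and that were low in stem. A locus is a stretch of the genome at which gene models of the leaf, meristem and stem count tables overlap on a strand by 1 exonic base or more. A member had a model in all 3 tables, at least 10 normalised CPM in leaf and in meristem, and a level in each of them at least 4-fold above stem. CPM set the fragments of a locus against the size of its library, and normalised CPM were scaled further by the TMM factors of edgeR, which correct for differences in RNA composition between tissues. These limits were met by 1103 of the 67811 loci in all, and by 1103 of the 33811 loci with a model in every tissue. Members were thus chosen by their counts in leaf, meristem and stem, and the levels below are a description with no test.

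All tissues came from the cultivar Cascade, grown in a glasshouse with sprays against insects and fungi and no other treatment. Young leaves, apical meristems and actively growing stems were taken, and their RNA was sequenced. The labels list 6 samples, 2 per tissue, while the protocols speak of 1 library per tissue. Each table holds 1 count column, which sums to 162799212 fragments for leaf, 135877224 for meristem and 125454712 for stem. No spread between plants could therefore be computed, and the intervals given are exact 95% intervals that cover counting error only, or, for shares of loci, treat loci as independent draws. The models carry assembler numbers without gene names, so markers of the labelled tissues could not be checked and no function is given for any locus.

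The apical meristem is the group of dividing cells at the shoot tip. It forms leaf primordia on its flanks, and the stem elongates below it. Leaf blades are dominated by photosynthetic cells, whereas growing stems add vascular tissue and fibres with thickened walls.

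Sharing between leaf and meristem with a low level in stem was the most frequent of the 3 possible patterns by count. At 10 normalised CPM or more in both leaf and meristem there were 11273 loci, of which the 1103 members were 9.78%. Loci shared by leaf and stem and low in meristem numbered 219 of 10196, or 2.15%. Loci shared by meristem and stem and low in leaf numbered 208 of 10368, or 2.01%. In bulk tissue, fewer cells of a type in stem and less RNA per cell cannot be told apart. With no scaling factors the 3 counts were 900, 124 and 587, so the members kept the largest count while the order of the other 2 turned. Members held 11.1% of the leaf fragments and 14.4% of the meristem fragments, against 0.918% of those of stem.

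The typical member was moderately expressed in both tissues and close to a handful of CPM in stem. The median level was 41.6 normalised CPM in leaf and 45.3 in meristem, against 2.96 in stem. The middle part of the distribution, between the lower and upper quartile, ran from 21.6 to 97.1 normalised CPM in leaf and from 22.7 to 97.8 in meristem, against 1.25 to 6.64 in stem. The other 10170 loci at 10 normalised CPM in leaf and meristem had medians of 35.9, 32.2 and 34.4 normalised CPM in leaf, meristem and stem. Per kilobase of model, member medians were 31.1 in leaf and 29.3 in meristem, against 2.34 in stem, and those of the other loci were 22.4, 18.9 and 20.3. Few members were silent in stem: 889 of 1103 (80.6%) reached 1 normalised CPM there, and 181 reached 10. None had a stem count of 0, but the rule asks for a stem model, which a locus silent in stem may lack. At 10 normalised CPM in leaf and meristem, 6 loci with models in both had none in stem. The lowest stem count was 4 fragments, only 4 members had 10 fragments or fewer, and so none of the folds is a bound set by a zero.

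**Figure D1:**
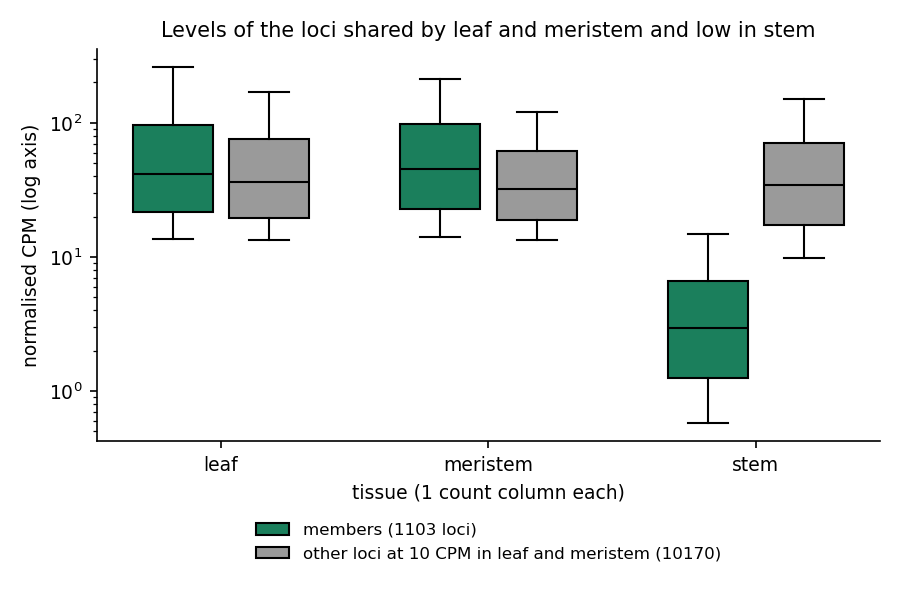
Normalised CPM on a log axis in leaf, meristem and stem for the 1103 members (green) and the other 10170 loci at 10 normalised CPM in leaf and meristem (grey); the line is the median, the box runs from the lower to the upper quartile and the whiskers from the 10th to the 90th percentile. The member medians are 41.6 in leaf and 45.3 in meristem, against 2.96 in stem, while the grey boxes lie at similar heights in every tissue.

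The fold over stem, taken from the lower of leaf and meristem, had a median of 9.17 among members, with quartiles of 5.53 and 19.8. At least 10-fold was seen at 504 members, at least 50-fold at 116 and at least 100-fold at 46. The limit did not fall in a gap. Just inside it lay a locus at 000023F:566783-570706, with 46.7 normalised CPM in leaf and 301 in meristem, against 11.7 in stem. Just outside it lay a locus at 002036F:147947-150877, with 77.2 in leaf and 142 in meristem, against 19.3 in stem. The next on either side, at 004986F:286783-290900 and 008762F:102294-105379, had folds of 4.003 and 3.999. At the CPM minimum, the nearest members at 002140F:397125-397388 and 001764F:262408-264214 had 10.01 in the lower tissue. The nearest loci left out, at 002519F:53239-57431 and 001162F:662572-665855, had 9.98 and 9.96.

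The largest folds were at loci with only a few fragments in stem, where part of the gap lay in the models. A single-exon locus at 002336F:10030-11499 (plus) had 1417 fragments in leaf and 1747 in meristem, against 4 in stem. Its normalised CPM were 11.46 in leaf and 11.003 in meristem, against 0.0283 in stem, a 405-fold (158 to 1489) and a 389-fold (152 to 1429) difference. The stem model covered 208 bases, against 1428 in leaf and 1470 in meristem, and the folds per base were 59.0 and 55.0. A 3-exon locus at 001768F:634400-637999 (plus) had 38.2 in leaf and 17.2 in meristem, against 0.0495 in stem, 772-fold and 348-fold by counts and 269-fold and 210-fold per base. A long locus at 000746F:569615-607745 (minus) joined 3 models with 15 exons in leaf and 2 models with 19 exons in meristem, against 1 stem model of 2 exons and 257 bases. It had 59.7 and 38.7 normalised CPM, against 0.127 in stem, and its folds of 469 and 304 came to 30.3 and 17.5 per base.

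Another pair of loci kept folds above 200 per base of model. A single-exon locus at 002327F:558963-559981 (minus) had 2950 fragments in leaf and 3000 in meristem, against 9 in stem, with models of 936, 982 and 1019 bases. It was 375-fold (197 to 821) above stem in leaf and 297-fold (156 to 650) in meristem, and 408-fold and 308-fold per base. A 2-exon locus at 009113F:54752-55653 (minus) had 7012 fragments in leaf and 12880 in meristem, against 30 in stem, and was 267-fold (187 to 396) and 382-fold (268 to 567) above stem, or 220-fold and 294-fold per base. Over all members, the stem model was a median 0.956 times as long as the shorter of the leaf and meristem models, against 1.02 among the other loci. It was at most 50% as long at 66 members (5.98%), against 34 of the other loci (0.334%). When counts were divided by model length, 1012 of the 1103 members (91.7%) stayed at least 4-fold above stem in both tissues, and 1100 stayed above stem.

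The members with the highest levels were spliced loci whose stem models were about as long as those of leaf and meristem, or longer. By fragments, the highest level common to leaf and meristem was at 003132F:312436-315749 (plus), with 2124 normalised CPM in leaf and 6756 in meristem, against 115.5 in stem. Per kilobase of model this was 857 in leaf and 2725 in meristem, against 41.7 in stem, and the locus is overlapped from the opposite strand. An 18-exon locus at 007490F:1370-44398 (plus) had 3728 in leaf and 1444 in meristem, against 125 in stem, which is 613 and 237 per kilobase, against 20.7. Its models covered 6081, 6083 and 6060 bases in leaf, meristem and stem, and its folds over stem were 29.7 in leaf and 11.5 in meristem. Leaf and stem had 2 separate models each at this locus, which 1 meristem model joined across a gap of 32235 bases. The locus is also overlapped from the opposite strand. Whether it is a single gene or separate genes was not tested.

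The other abundant members differed in their leaf to meristem balance. An 11-exon locus at 000842F:271284-275137 (plus), with a model of 1927 bases in every tissue, had 1336 normalised CPM in leaf and 1383 in meristem, against 236 in stem. It was thus 5.65-fold (5.59 to 5.72) above stem in leaf and 5.85-fold (5.78 to 5.92) in meristem, and with no scaling factors the lower of both folds was 3.81. A 4-exon locus at 000008F:3443348-3485587 (plus) was nearly as even, with 1261 in leaf and 1357 in meristem, against 116 in stem, and holds an intron of 39657 bases in leaf. An 8-exon locus at 004166F:314108-317524 (minus) leaned to leaf, with 3839 in leaf and 1245 in meristem, against 249 in stem. Per kilobase it had 1841 in leaf and 592 in meristem, against 119 in stem. The 10 members of highest level, by the lower of leaf and meristem, together held 11.96% of the fragments of all members in leaf and 14.3% in meristem, against 16.2% in stem, and the highest 100 held 49.9%, 44.8% and 47.9%.

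After TMM scaling, leaf and meristem levels of the members were balanced on the whole, but less alike locus by locus than at other loci. The median log2 ratio of leaf over meristem was 0.02 (-0.07 to 0.09), against 0.09 among the other loci at 10 normalised CPM in both. Its SD across loci was 1.48 log2 units, against 1.06. Leaf and meristem lay within 2-fold of each other at 601 members (54.5%), against 7369 of the other loci (72.5%). Across loci, the Pearson correlation of log2 levels in leaf and meristem was 0.58 over 1103 members and 0.72 over the others; all points share the same libraries, and the CPM minimum limits both axes. TMM factors are computed so that the typical shared locus comes out at about the same level in each tissue, so the median ratio depends on them. Leaving out the scaling factors shifts every log2 ratio by -0.62 and takes the median of the same 1103 members to -0.60. The 900 loci that are members without the factors, 857 of them shared, had a median of -0.27.

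**Figure D2:**
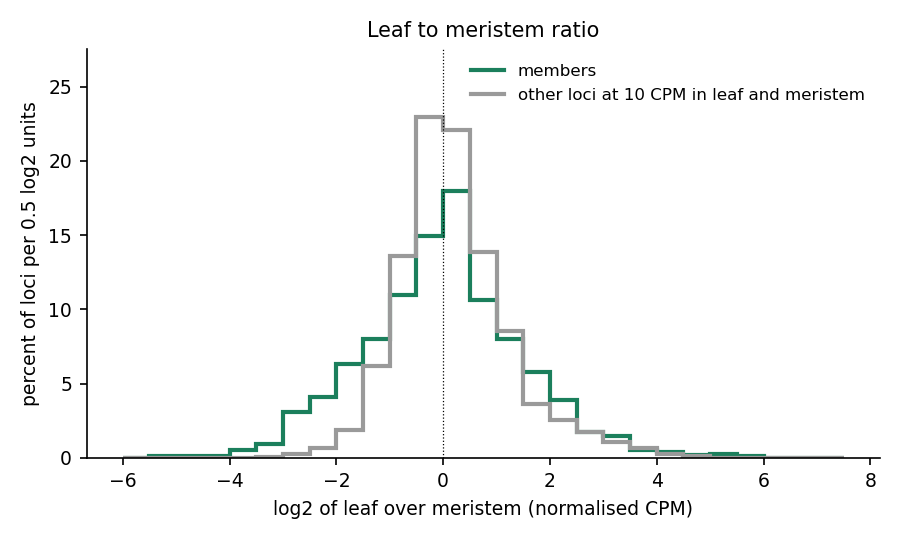
Percent of loci per bin of 0.5 log2 units against the log2 ratio of leaf over meristem, for the 1103 members (green) and the other 10170 loci at 10 normalised CPM in leaf and meristem (grey). The member curve is lower and broader, with 54.5% within 2-fold against 72.5%. It is nearly even on both sides, and lies furthest above the grey curve on the side of meristem.

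Against the other loci, the wider spread lay mainly on the side of meristem, while the members themselves were nearly even on both sides. Meristem was at least 4-fold above leaf at 98 members (8.88%), against 96 of the other loci (0.944%). Over all 11273 loci of this level the share was 1.72%. Leaf was at least 4-fold above meristem at 94 members (8.52%), against 651 of the other loci (6.401%), and at 6.61% of all. Put the other way, members made up 98 of the 194 loci at least 4-fold higher in meristem than in leaf (50.5%, 43.3 to 57.8), and 94 of the 745 at least 4-fold higher in leaf (12.6%, 10.3 to 15.2). Among loci within 2-fold they made up 601 of 7970 (7.54%). The classes are drawn from the same leaf and meristem levels that choose the members, so these shares are a description only. With no scaling factors, members were 30.6% of the loci at least 4-fold higher in meristem and 12.1% of those at least 4-fold higher in leaf, and a CPM minimum of 1 gave 25.4% and 11.3%.

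The members that leaned most to leaf had short models with 1 or 2 exons. At 000592F:464744-577793 (minus), leaf had 1933 normalised CPM and meristem 39.6, against 5.63 in stem. Leaf was 48.8-fold above meristem there, and meristem 7.03-fold (6.53 to 7.58) above stem. A single-exon locus at 000212F:455386-456059 (plus) had 943 in leaf and 25.1 in meristem, against 2.33 in stem. At 000973F:50320-259212 (minus), leaf had 5262 and meristem 151, against 32.9 in stem, and its leaf level per kilobase was 4478. The first and the last of these loci were built alike. In leaf and in meristem a single model joined 2 exons across a gap, of 112247 bases in both tissues on 000592F and of 207718 and 207799 bases on 000973F. In stem 2 separate models without an intron stood there instead, and both loci are overlapped from the opposite strand.

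The members that leaned most to meristem held a pair of single-exon loci and a 7-exon locus. At 005789F:108863-109566 (minus), leaf had 55.3 normalised CPM and meristem 2269, against 12.5 in stem. Leaf was 4.41-fold (4.18 to 4.65) above stem there and meristem 181-fold (173 to 190), while with no scaling factors leaf was 2.97-fold above stem, below the 4-fold limit. At 002534F:130317-130910 (minus), leaf had 17.3 and meristem 513, against 3.40 in stem, and with no scaling factors leaf was 3.43-fold above stem. The 7-exon locus, at 010993F:1711-4867 (plus), had 78.7 in leaf and 1322 in meristem, against 6.97 in stem, with models of 2444, 2474 and 2436 bases. Members at least 4-fold higher in meristem had a median of 7 exons, and those at least 4-fold higher in leaf a median of 3. Among the other loci of these classes the medians were 11 and 5, the same order. The median stem levels of the members in these classes were 1.82 and 3.03 normalised CPM, against 26.0 and 32.8 among the other loci.

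Other members were almost exactly even between leaf and meristem while their distance to stem varied. At 001768F:324727-329087 (minus, 9 exons), leaf had 951 normalised CPM and meristem 955, against 58.4 in stem. At 000119F:1773456-1781299 (minus, 2 exons), leaf had 159.0 and meristem 159.9, against 37.5 in stem. At 000254F:1250466-1254932 (plus, 9 exons), leaf had 117.4 and meristem 116.5, against 2.05 in stem. These 3 loci were chosen for a ratio nearest to 1, and their folds over stem in leaf were 16.3, 4.24 and 57.3. With no scaling factors the second of them was 2.86-fold above stem in the lower tissue, below the limit.

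Exon structure was not used to choose the members, and it differed from that of other loci of the same level. The number of exons was taken as the larger of the leaf and meristem models. Members had a median of 4 exons with quartiles of 2 and 7.5, against a median of 6 with quartiles of 3 and 10 among the other loci. Single-exon loci made up 172 members (15.6%, 13.5 to 17.9), against 688 of the others (6.76%, 6.28 to 7.27). Loci of 10 exons or more made up 186 members (16.9%, 14.7 to 19.2), against 2842 of the others (27.9%, 27.1 to 28.8). Leaf models of members had a median length of 1420 bases, against 1658 among the others, and the longest intron of spliced members a median of 627 bases, against 796.

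The share of loci that were members was lower at higher exon numbers. Members were 172 of 860 single-exon loci (20%, 17.4 to 22.8), 202 of 1151 loci with 2 exons (17.5%, 15.4 to 19.9) and 125 of 1181 with 3 (10.6%, 8.89 to 12.5). They were 9.35% of loci with 4 or 5 exons, 7.53% with 6 to 9, 6.06% (5.17 to 7.06) with 10 to 19 and 6.58% (4.52 to 9.21) with 20 or more. The share of single-exon loci that were members ranged from 12.4% to 36.7% over the alternative settings, and was above that of loci with 10 to 19 exons, which ranged from 2.89% to 14.9%, under each of them. The median fold over stem also went down over most of these classes, from 11.1 among single-exon members to 7.28 among those with 10 to 19 exons, and was 9.22 among the 31 members with 20 or more. The loci low in meristem had the same kind of order, with 41 of 728 single-exon loci (5.63%, 4.07 to 7.56) and 17 of 2342 loci with 10 to 19 exons (0.726%, 0.423 to 1.16). The loci low in leaf did not, at 14 of 652 (2.15%, 1.18 to 3.58) and 63 of 2507 (2.51%, 1.94 to 3.204).

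**Figure D3:**
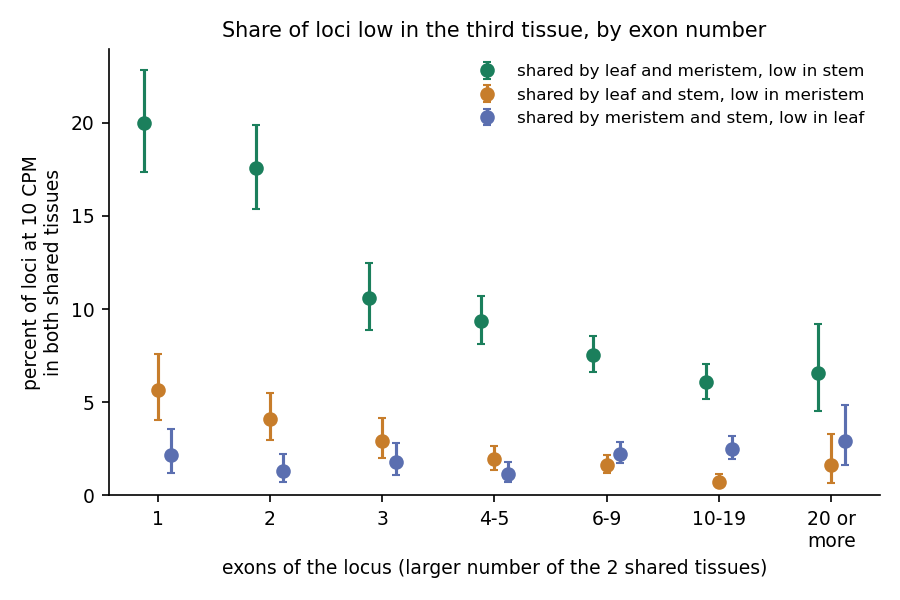
Percent of loci at 10 normalised CPM in both shared tissues that were at least 4-fold lower in the remaining tissue, by number of exons, for the members (green), loci low in meristem (orange) and loci low in leaf (blue); bars are exact 95% intervals over loci. The green points go from 20% for 1 exon to 6.06% for 10 to 19 exons.

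Level and length moved with exon number, so the comparison was split by each. Among loci whose lower tissue had 10 to 30 normalised CPM, 16.6% of members and 7.87% of the other loci had a single exon. From 30 to 100 the shares were 17.2% and 5.56%, and at 100 or more 7.38% (3.74 to 12.8) and 4.44% (3.26 to 5.90), where the intervals overlap. The share of members itself was 8.89% at 10 to 30, 10.4% at 30 to 100 and 12.8% (10.95 to 14.9) at 100 or more. By leaf model length, members were 20.1% of loci under 500 bases, 12.5% from 500 to 1000, 9.68% from 1000 to 2000, 8.03% from 2000 to 4000 and 6.22% above that. Under 500 bases, members were 29 of 123 single-exon loci (23.6%) and 31 of 176 spliced ones (17.6%). Between 500 and 1000 bases, they were 72 of 279 single-exon loci (25.8%) and 163 of 1595 spliced ones (10.2%). Between 1000 and 2000 bases they were 51 of 332 (15.4%) and 454 of 4887 (9.29%), and between 2000 and 4000 bases 20 of 125 (16%) and 253 of 3274 (7.73%).

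A few members were at the long end of structure. Most exons in leaf were found at 002449F:31908-62962 (minus), with 32 exons in leaf and 30 in meristem, against 24 in stem. It had 99.2 normalised CPM in leaf and 17.9 in meristem, against 3.49 in stem. A locus at 000505F:1152446-1160769 (minus, 28 exons in leaf) leaned the other way, with 26.9 and 123, against 2.65 in stem. At 003486F:225653-240975 (plus, 27 exons in leaf), the levels were 53.7 and 69.2, against 7.29 in stem. Several models made up these exon sums: 1 in leaf, 2 in meristem and 5 in stem at the first locus, and 5, 2 and 7 at the second. The third had 2 in leaf and 1 each in meristem and stem. Per base, meristem was 3.63-fold above stem at the first. Across members, 38.3% had more than 1 model in at least 1 tissue, against 22.9% of the other loci. This share was 68.3% among loci low in leaf and 29.7% among loci low in meristem.

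Introns above 5000 bases were found at 7.62% of members (6.12 to 9.34) and 8.05% of the other loci (7.53 to 8.60), and the intervals overlap. Those above 20000 bases were found at 44 members (3.99%, 2.91 to 5.32), against 226 others (2.22%, 1.94 to 2.53). The longest intron in leaf was 358138 bases, at 000099F:263275-627570 (minus), where meristem and stem models had none above 615 bases. That locus had 101 normalised CPM in leaf and 47.0 in meristem, against 8.09 in stem. At 000063F:1535745-1799031 (plus), leaf and meristem models held introns of 260374 and 260181 bases and stem had 2 separate models. Its levels were 140 in leaf and 907 in meristem, against 15.8 in stem. Whether such gaps are true introns or joins between separate genes was not tested.

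Overlap with a model on the other strand was found at 188 members (17.04%, 14.9 to 19.4), against 1155 of the other loci (11.4%, 10.7 to 11.99). It was more frequent among loci low in meristem (37.0%, 30.6 to 43.8) and less so among loci low in leaf (7.69%, 4.46 to 12.2). None of the 188 had a partner that was itself a member. At 151 of them every partner stayed below 1 normalised CPM in leaf and meristem, and a partner exceeded the member at 3 in leaf and at 2 in meristem. Partners of the other overlapped loci were not counted, so whether these values are particular to members was not tested. Without overlapped loci 915 members were left.

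Members lay next to other members more often than other loci did. Taking loci with a model in all tissues in order of their start on a contig, the locus after a member was a member in 77 of 879 cases (8.76%, 6.97 to 10.8). After any other locus it was a member in 810 of 26891 cases (3.01%, 2.81 to 3.22). The count was repeated among loci at 10 normalised CPM in leaf and meristem, a choice made after seeing the data. It then gave 122 of 692 (17.6%, 14.9 to 20.7) after a member and 568 of 6656 (8.53%, 7.87 to 9.23) after another locus. The same count over all loci with a model in every tissue gave 1.62% (0.336 to 4.67) and 0.649% for loci low in meristem, and 4% (1.62 to 8.07) and 0.576% for loci low in leaf.

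The excess was widest for loci on the same strand with little space between them. Among loci at 10 normalised CPM in leaf and meristem, the next locus on the same strand and less than 2000 bases away was a member in 25 of 44 cases (56.8%, 41.03 to 71.7) after a member, against 21 of 521 (4.03%, 2.51 to 6.10) after another locus. The 25 pairs of members had a median gap of 110 bases, against 508 in 500 such pairs of other loci. Gaps under 500 bases were found in 20 of the 25 (80%), against 247 of the 500 (49.4%). The smallest gap is negative in both sets, since a locus can lie inside an intron of its neighbour. A single-exon locus took part in 12 of the 25 pairs of members (48%), against 89 of the 500 pairs of other loci (17.8%). The leaf over meristem ratios within pairs of members differed by a median of 0.19 log2 units, against 0.46. Whether such pairs are pieces of a single gene or separate genes was not tested.

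With those close pairs set aside, an excess of smaller size was left. The next locus was then a member in 97 of 648 cases (14.97%, 12.3 to 17.95) after a member, against 547 of 6135 (8.92%, 8.21 to 9.66) after another locus. By gap the excess was uneven. On the same strand it was 11 of 55 (20%, 10.4 to 33.0), against 7.16% (5.04 to 9.81), at 2000 to 10000 bases, and 15 of 107 (14.02%, 8.06 to 22.1), against 10.03% (7.99 to 12.4), at 10000 to 50000 bases, where the intervals overlap. At 50000 bases or more it was 30 of 174 (17.2%, 11.9 to 23.7), against 141 of 1628 (8.66%, 7.34 to 10.1). On the other strand it was 41 of 312 (13.1%, 9.60 to 17.4), against 294 of 3250 (9.05%, 8.08 to 10.1), and within 2000 bases 7 of 51 (13.7%, 5.70 to 26.3), against 39 of 555 (7.03%, 5.04 to 9.48). The wider gaps on the other strand gave 3 of 31 (9.68%), against 10.2%, at 2000 to 10000 bases, then 11 of 65 (16.9%), against 8.93%, and 20 of 165 (12.1%), against 9.51%. The intervals overlap in each of these comparisons on the other strand.

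**Figure D4:**
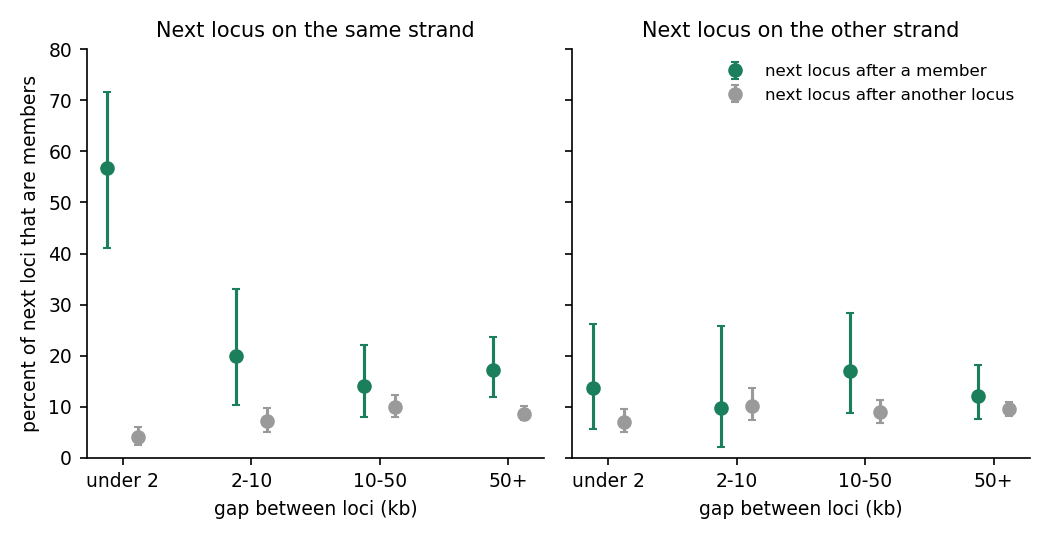
Percent of next loci that are members, after a member (green) and after another locus (grey), by gap in kilobases and by strand, among loci at 10 normalised CPM in leaf and meristem; bars are exact 95% intervals over pairs. The point that stands apart is 56.8% after a member for same-strand gaps under 2 kb, against 4.03% after another locus.

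Strand and exon number were shared more often between neighbouring members than between other neighbours. Of the 77 adjacent pairs, 54 (70.1%, 58.6 to 80.03) lay on the same strand, against 51.8% (50.1 to 53.5) of 3230 adjacent pairs of other loci at 10 normalised CPM in leaf and meristem. The exon number was equal in 17 pairs (22.1%, 13.4 to 33.0), against 8.05% (7.13 to 9.04). Loci with few exons are more common among members, and how much of this difference that alone would give was not tested. Close pairs on the same strand were not set aside in this paragraph. Gaps under 2000 bases were found in 30 of the 77 pairs (38.96%), against 29.4% of the 3230. The leaf over meristem ratios of the 2 loci of a pair had a Pearson correlation of 0.43 over the 77 pairs and 0.09 over the 3230 pairs, which share libraries and assembly. The ratios themselves were hardly closer: they differed by a median of 0.72 log2 units, against 0.80, and by less than 1 in 59.7% of pairs, against 58.1%.

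The members were spread over 837 of the 6041 contigs with a locus in all tissues, and 664 contigs held 1 member each. Runs of members with no other such locus between them numbered 70 and held 147 members (126 in pairs and 21 in runs of 3). No run was longer than 3. Contigs with 5 or more members numbered 11, and the most on any contig was 7, on 001331F and on 000198F. On 001331F these were 7 of 15 loci at 10 normalised CPM in leaf and meristem (46.7%), and on 000678F they were 5 of 7 (71.4%). On 000198F they were 7 of 30 (23.3%), and the lowest share of the 11 contigs was 6 of 42 (14.3%), on 000023F. Over all 11273 loci of this level the share was 9.78%. These contigs were picked for holding many members, so a high share partly follows from the choice. How many such contigs or runs a random placement of members would give was not tested.

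Contig 001331F held 2 of the 7 runs of 3. In the first, all on the minus strand, the locus at 417683 to 420028 had 79.4 normalised CPM in leaf and 46.7 in meristem, against 9.43 in stem. The next, at 477581 to 479595, had 278 and 397, against 1.51 in stem, and the third, at 546847 to 550838, had 159 and 56.5, against 1.06. Gaps of 57552 and 67251 bases lay between them, and they had 3, 3 and 11 exons. In the second run, a locus at 613746 to 615678 had 75.8 in leaf and 16.5 in meristem, against 0.248 in stem. Its neighbour on the same strand, at 637279 to 639365, had 157 and 163, against 1.46, and both had 5 exons in leaf and in meristem. A 2-exon locus on the plus strand, at 700690 to 707051, had 31.5 and 55.2, against 1.97 in stem.

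Contig 000678F held a run of 3 on the minus strand. The locus at 874094 to 876256 (5 exons) had 102 normalised CPM in leaf and 120 in meristem, against 0.806 in stem. The other two, at 880954 to 883386 and at 883453 to 883935, lay 66 bases apart, with 342 and 378 in leaf and 54.7 and 43.8 in meristem, against 0.983 and 1.15 in stem. Their leaf models cover 1073 and 357 bases, so per kilobase they had 318 and 1060 in leaf and 47.4 and 124 in meristem, against 0.920 and 2.87 in stem. A run on contig 002358F (plus strand) ended in a pair 109 bases apart. Its single-exon locus at 83134 to 83358 had 62.8 in leaf and 23.5 in meristem, against 1.03 in stem, and the 3-exon locus at 83468 to 85576 had 1112 and 433, against 18.3. Although their levels differed, their folds over stem were 60.9 (51.7 to 72.2) and 60.7 (58.3 to 63.1) in leaf, and 22.8 and 23.6 in meristem. The first locus of that run, at 59800 to 61524, lay 21609 bases away and had 14.5 and 16.2, against 0.311 in stem.

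The run on contig 002550F was the only one of the 7 with the same number of exons at all its loci in leaf. Its 3 loci had 2 exons each on the plus strand, at 290050 to 291877, 303795 to 305212 and 502870 to 504053. They had 137, 80.9 and 61.0 normalised CPM in leaf and 61.9, 59.4 and 28.8 in meristem, against 0.757, 0.516 and 1.11 in stem. On contig 005816F, a pair of single-exon loci on the minus strand at 44751 to 45333 and 49896 to 50474 leaned to meristem, with 20.1 and 65.1 in leaf and 41.7 and 161 in meristem, against 2.98 and 3.64 in stem. A 5-exon locus on the plus strand at 97397 to 99422 had 146 in leaf and 128 in meristem, against 1.86. The run on contig 001211F was low throughout, with 10.8 to 16.4 in leaf and 13.3 to 28.4 in meristem, against 0.149 to 2.69 in stem, and all its loci are overlapped from the opposite strand, at 121063 to 122390, 138346 to 140560 and 160212 to 162006. Of the 7 runs, 4 lay on a single strand.

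**Figure D5:**
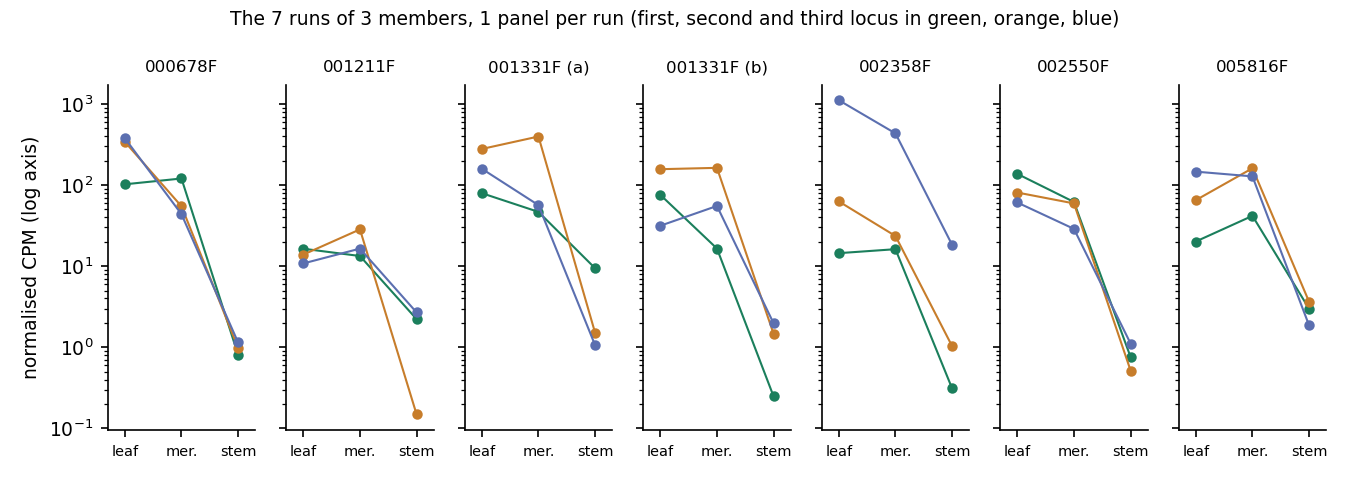
Normalised CPM on a log axis in leaf, meristem (mer.) and stem for the loci of the 7 runs of 3 neighbouring members, 1 panel per run and 1 line per locus, in order of position (green, orange, blue); 001331F has 2 runs (a, b). Every line falls to stem, as the rule for members requires, while lines of a run can differ in the leaf to meristem step, as on 000678F.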

How the data were processed

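Raw counts were deposited, made with featureCounts 1.6.3 on read pairs with strand setting 1, per the file headers. Each tissue has 1 column and 1 set of models, on a masked and deduplicated Cascade assembly with no build name. The headers list no option to count pairs that align to several places, so loci with near-identical copies may be under-counted. HISAT2 2.1.0 and StringTie 1.3.3b are named in the submitters' processing notes. The deposited lengths are exon bases per model. The sources used here do not say whether the kit marked strand. Every column stands for its tissue as the authors deposited it, without replicates.

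Models were joined into 67811 loci and counts summed. TMM factors (0.759 leaf, 1.17 meristem, 1.13 stem; edgeR 4.0.16, R 4.3.3) came from the 33811 loci with models in every tissue, with table totals as library sizes and no filter. A count of 0 was set to 3 for folds, and 3 counts are 0.0243, 0.0189 and 0.0212 normalised CPM in leaf, meristem and stem. Intervals are Clopper-Pearson (folds: conditional binomial; the median ratio: order statistics). Those of folds cover counting error only, and without molecular identifiers reads need not be separate molecules. Those of shares and of the median ratio treat loci as independent draws. No test was run and no p-value computed. Tools were Python 3.11.15, pandas 2.3.3, numpy 2.4.6, scipy 1.17.1 and matplotlib 3.10.9. On 33811 simulated loci, 100 of 100 lowered 8-fold in stem were called, 0 of 100 lowered 2-fold and 0 of 33611 unchanged. Their counts were drawn with counting error only, from a single profile shared by the tissues. This checked the calculation and gives no rate of false calls for these data.

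The members, lists and comparisons were chosen with earlier results of these data known. Loci were named by rank: the 5 of highest level and of largest fold, the 3 at each end of the leaf to meristem ratio and, at 100 normalised CPM, nearest to 1, the 3 with most exons and with the longest intron, the longest runs (7 tied), and the 2 on each side of both limits. Of the gene numbers, 0 matched the RefSeq table at hand, so no names or sequences are given.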

Additional observations from a re-analysis of the deposited data

How the results depend on the processing

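No paired analysis was possible because no column of counts is tied to a replicate, and leaving out single samples was not run for the same reason. Values in this paragraph are ordered as the number of members, of loci low in meristem and of loci low in leaf. The number of members stayed within 1.5 times of 1103 with no scaling factors (900), RLE factors, the low-count filter (1104), counts per base, joining by span (1094) and without overlapped loci (915). A CPM minimum of 1 gave 2354, 656 and 1256, and a minimum of 50 gave 335, 62 and 23. A fold of 2 gave 2455, 1000 and 985, and a fold of 8 gave 621, 40 and 62. With model lengths within 10% the counts were 358, 88 and 14, and loci with a single model in each tissue gave 680 members and 66 loci low in leaf. No scaling factors gave 124 loci low in meristem and 587 low in leaf, counts per base gave 110 low in leaf, and leaving out overlapped loci gave 138 low in meristem. Fewer loci enter under the length, model and overlap limits by construction. The share of members among loci at 10 normalised CPM in leaf and meristem was also lower there than the 9.78% reported. It was 6.19% (5.59 to 6.85) with model lengths within 10% and 7.98% (7.42 to 8.58) with a single model in each tissue. Without overlapped loci it was 9.21% (8.65 to 9.80).

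The median log2 ratio of leaf over meristem moved out of its interval with no scaling factors (-0.27), a CPM minimum of 1 (-0.12) or 50 (0.13), a fold of 2 (0.14) or 8 (-0.13), 1 model per table (0.13) and matched lengths (0.20), so its sign is not fixed. The share of single-exon members was 19.2% at a CPM minimum of 1, 12.9% at a fold of 2 and 22.8% with 1 model per table. The share of loci after a member that are members was 16.1% at a CPM minimum of 1, 4.18% at 50, 13.2% at a fold of 2, 5.50% among all loci, 10.9% within 20 kb, 11.5% on the same strand and 17.6% among expressed loci (added after seeing the data). After other loci these shares were 6.24%, 0.942%, 6.73%, 1.504%, 2.49%, 2.75% and 8.53%. Of the 1103 members, 857 were kept with no scaling factors and 1090 with RLE factors. Of the 49 named loci that are members, 40 stayed members with no scaling factors (7 of the others fell below 4-fold), 48 with RLE factors, 49 with the low-count filter and 47 per base. The shares by exon number and by leaf to meristem class were added to these settings after seeing the data. With 1 column per tissue, error between plants limits all of these values.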

Other observations

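Loci with models in leaf and meristem and none in stem cannot be members. They numbered 2742, and 6 of them reached 10 normalised CPM in both leaf and meristem. The most abundant, at 010552F:9720-12591 (minus, 2 exons), had 31.7 normalised CPM in leaf and 92.4 in meristem. An 18-exon locus at 000948F:484137-488002 (minus) had 18.5 and 16.9. Without a stem model no fold over stem can be given for them. At this level the same gap was found at 1 locus with models in leaf and stem and none in meristem, and at 4 with models in meristem and stem and none in leaf. These loci were named after their values were seen.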
